A study of Mus musculus with 10 samples.

Results

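The visceral endoderm is the epithelium that wraps the early postimplantation mouse embryo, and with the extraembryonic mesoderm it forms the visceral yolk sac. Before the placenta works, it secretes lipoproteins and serum proteins towards the embryo and takes up maternal proteins by endocytosis, much as liver and kidney do later. Methylation of the CpG dinucleotides at a promoter is usually low where the promoter is rich in CpGs, and in promoters poor in CpGs it differs more between tissues. The members described here are 10 genes listed as visceral endoderm and yolk sac genes, out of 49993 genes placed on the genome by RefSeq. Among them are the transcription factor gene Hnf4a, the lipoprotein genes Apoa1 and Apob, the serum protein gene Afp, and the retinol and thyroxine carriers Rbp4 and Ttr. The others are the endocytic receptor genes Lrp2, Cubn and Amn, and the matrix gene Sparc, which is abundant in parietal endoderm. All 10 were chosen by name, and the positions used were those inside a member or within 2000 bp of one of its ends.

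Mouse embryos of embryonic day 7.5 were analysed by reduced representation bisulfite sequencing, which reads cytosine methylation in restriction fragments that are mostly rich in CpGs. The series holds 5 samples titled control and 5 titled arsenic. For the strain, the arsenic compound with its dose and timing, the embryos pooled in a sample and the fate of the extraembryonic tissues, no information was at hand. The deposited table holds 10 numbered sets of counts, called columns here, and no number names a group. No column was therefore tied to a sample, arsenic was not compared with control, and no test between groups was made.

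The level of a gene part is its methylated calls, summed over positions, as a percentage of all its calls. It is given for the 10 columns summed, with a 95% Wilson interval, and as the lowest, median and highest column. The interval covers counting error only and is too narrow wherever 1 read gives calls at neighbouring positions. Each part is an average over all cells of the embryo and over both alleles, so a smaller share of cells of a type and a lower level within those cells cannot be told apart. The table holds no RNA, so the tissue named in the labels was not checked against marker expression. Coverage summed over all positions ranged from 73509873 to 127743904 in the 10 columns, and the mean autosomal level from 40.1% to 42.7%.

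Of the 10 members, 7 had at least 3 measured positions at the start, which is here the window of 2000 bp on each side of the gene's first base as RefSeq orients it. Lrp2, Rbp4 and Amn were under 20% there, and Apob, Cubn, Hnf4a and Sparc lay between 42.3% and 58.5%. Among all 11269 autosomal protein-coding genes measured in the same window, 75.9% were under 20%. The median start level of the 7 members was 42.3%, and that of all genes 4.53%. Apoa1 had no measured position at its start and Afp had 2, and Ttr has no strand in the table used, so its ends are given by coordinate. Over the 23 member parts with a measured position there were 768 positions and 349498 calls, and the median level of the 21 parts with at least 3 positions was 53.1%.

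**Figure D1:**
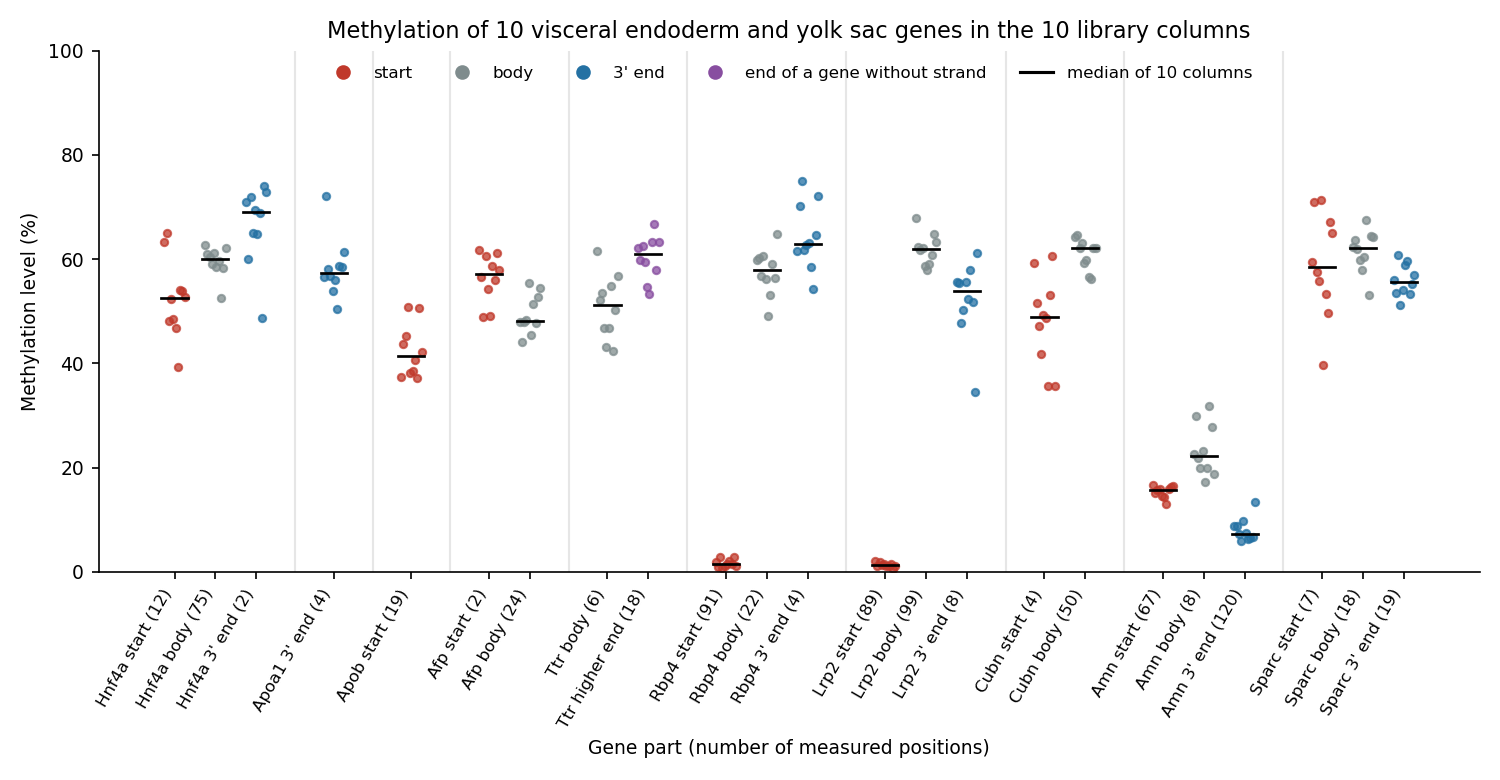
Methylation level in percent (vertical axis) of each measured part of the 10 genes (horizontal axis, with the number of measured positions); each point is 1 of the 10 columns, in column order from left to right, and black bars are medians over the columns. The starts of Rbp4 and Lrp2 stay under 3% in each column, Amn lies between 5.98% and 31.8% in its 3 parts, and the other parts lie between 34.6% and 75%.

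The letters around the starts show what was measured. The lines below hold the 250 bases before an RNA start for 6 members, 5′ to 3′ on the gene's own strand, from RefSeq (GRCm38.p6, the assembly that mm10 corresponds to). Capitals mark CpGs with a measured position, and CpGs in lower case were not measured. Lrp2 and Rbp4 are shown as the starts with almost no methylation, Amn as the one in between, Apob and Cubn as partly methylated starts, and Afp as a start without measured positions. The windows are chr2:69586030-69586279 (minus strand) for Lrp2, chr19:38124812-38125061 (minus) for Rbp4, chr12:111270846-111271095 (plus) for Amn, chr12:7977427-7977676 (plus) for Apob, chr2:13491877-13492126 (minus) for Cubn and chr5:90490464-90490713 (plus) for Afp.
Lrp2: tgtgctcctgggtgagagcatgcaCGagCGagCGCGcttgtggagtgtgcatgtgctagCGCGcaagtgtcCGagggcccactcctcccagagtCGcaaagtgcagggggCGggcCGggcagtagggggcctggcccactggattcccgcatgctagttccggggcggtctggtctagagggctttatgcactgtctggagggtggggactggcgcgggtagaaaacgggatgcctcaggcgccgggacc
Rbp4: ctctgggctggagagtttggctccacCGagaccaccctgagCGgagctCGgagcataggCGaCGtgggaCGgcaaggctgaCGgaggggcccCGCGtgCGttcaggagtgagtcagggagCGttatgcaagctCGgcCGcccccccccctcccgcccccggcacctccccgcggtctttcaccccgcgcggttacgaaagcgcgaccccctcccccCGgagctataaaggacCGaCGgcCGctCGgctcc
Amn: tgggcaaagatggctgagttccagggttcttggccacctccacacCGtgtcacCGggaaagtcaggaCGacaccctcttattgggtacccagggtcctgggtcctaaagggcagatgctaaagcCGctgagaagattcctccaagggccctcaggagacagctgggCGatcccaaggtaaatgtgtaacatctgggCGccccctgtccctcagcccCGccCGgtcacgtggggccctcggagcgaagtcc
Apob: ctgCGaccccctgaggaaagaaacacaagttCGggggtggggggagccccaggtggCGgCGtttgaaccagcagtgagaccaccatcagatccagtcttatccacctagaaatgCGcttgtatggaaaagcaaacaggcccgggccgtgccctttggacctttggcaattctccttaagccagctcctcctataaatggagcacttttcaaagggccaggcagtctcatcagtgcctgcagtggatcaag
Cubn: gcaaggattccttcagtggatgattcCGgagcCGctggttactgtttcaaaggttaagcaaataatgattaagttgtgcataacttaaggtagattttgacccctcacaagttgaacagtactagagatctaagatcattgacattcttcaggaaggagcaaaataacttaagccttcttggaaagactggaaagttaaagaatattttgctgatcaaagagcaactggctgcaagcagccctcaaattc
Afp: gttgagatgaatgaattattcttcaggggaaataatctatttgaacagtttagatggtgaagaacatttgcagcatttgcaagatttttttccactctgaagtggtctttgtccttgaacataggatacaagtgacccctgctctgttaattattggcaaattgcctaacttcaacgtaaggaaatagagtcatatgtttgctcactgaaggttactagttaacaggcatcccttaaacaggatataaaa

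Lrp2 has 18 CpGs in these 250 bases, of which 10 were measured, and their levels ran from 0.674% to 2.54%. The Rbp4 stretch has 28 CpGs, of which 18 were measured at 0 to 8.47%, and the Amn stretch 11, of which 8 were measured at 7.76% to 28.4%. Apob has 7 CpGs there, of which 5 were measured at 40.0% to 55.2%, and both CpGs of Cubn were measured, at 43.7% and 57.9%. The single CpG of the Afp stretch was not measured. RefSeq gives 11 such promoter windows of 300 bases (250 before and 50 after an RNA start) for the 9 members with a strand. The letters CCGG, which read the same on both strands and are cut by MspI, the enzyme most protocols of this kind use (the labels name none), occurred in 6 of the 11, and these 6 held measured positions. The other 5, of Apoa1, Afp, Sparc, the first Rbp4 start and the second Hnf4a start, held no CCGG and no measured position. Over all 32851 promoter windows, 52.8% held CCGG, and 62.1% of those with it had a measured position against 0.625% of those without.

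Rbp4 and Ttr form the carrier complex that brings retinol, the precursor of retinoic acid, to cells, and Ttr also carries thyroxine. The start of Rbp4 (chromosome 19, 38123321 to 38127321, mm10) was nearly unmethylated, with a level of 1.55% (95% interval 1.43 to 1.68%, 38824 calls at 91 positions). The columns ran from 0.715% over a median of 1.496% to 2.84%, and columns 3 and 9 were the highest. A window of 500 bp gives 2.63%. The measured positions lay 233 to 817 bp inside the gene, around the second of its RefSeq starts, whose 300-base promoter holds 40 CpGs against 5 in that of the first start. The 3′ end of a long non-coding RNA gene on the same strand, Gm32440 (38125754 to 38134496), lies in this window too. From 2178 to 2397 bp the level was 59.3% over 18 positions, so that the low stretch ended between 817 and 2178 bp, where no position was measured. The body of Rbp4 had a level of 57.4% (columns 49.2 to 64.8%) and its 3′ end 64.0% over 4 positions (54.2 to 75%), both far outside the columns of the start.

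Ttr lies on chromosome 18 (20664209 to 20674326). Its lower-coordinate end had no measured position. At its body, 6 positions gave 50.4% (columns 42.3 to 61.5%, median 51.2%), and at its higher-coordinate end 18 positions gave 60.2% (53.3 to 66.8%, median 61.0%). The ranges of both parts overlapped, but within each of the 10 columns the higher-coordinate end was above the body. All 24 positions lay between 45.3% and 75%. Every measured position of Ttr was thus partly methylated, and the start of the gene, whichever end it is, was either not measured or partly methylated.

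Lrp2 encodes megalin, the large receptor of the apical membrane of the visceral endoderm and of kidney tubules, which takes up carrier-bound vitamins and lipoproteins. With the columns summed, its start (chromosome 2, 69584029 to 69588029) had the lowest level of the 7 measured starts, 1.38% (interval 1.27 to 1.504%, 38634 calls at 89 positions). The columns ran from 0.611% in column 9 over a median of 1.29% to 2.04% in column 1. Rbp4 was lower than Lrp2 in some columns, and also with at least 20 reads in every column, at 1.14% against 1.36%. Each of the 89 positions, which lay from -451 to 520 bp relative to the first base, was at 8.33% or below. The next measured stretch, 4724 to 5108 bp into the gene, stood at 55.8% over 10 positions. The whole body had a level of 62.0% over 99 positions (columns 57.9 to 68.0%, median 61.9%) and the 3′ end 53.1% over 8 positions (34.6 to 61.2%).

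Cubn encodes cubilin, a receptor without a membrane-spanning segment that binds intrinsic factor with vitamin B12 and works together with megalin. At its start (chromosome 2, 13489876 to 13493876) only 4 positions were measured, from -224 to 35 bp relative to the first base, with a level of 47.8% (interval 45.1 to 50.5%, 1276 calls). Columns 7 and 10 were the lowest, at 35.8% and 35.6%, the median was 49.0%, and columns 1 and 9 were the highest, at 59.3% and 60.6%. The body had 60.9% over 50 positions (columns 56.1 to 64.6%) and was above the start in each of the 10 columns, by 1.55 to 26.5 percentage points. The columns of Lrp2 and Cubn thus did not overlap at the start, while those of the 2 bodies overlapped. The number of CpGs in the 300-base promoter differed too, 20 for Lrp2 and 5 for Cubn. A long non-coding RNA gene on the opposite strand of Cubn, Gm13270 (13271577 to 13309275), covers part of the Cubn body, with its measured positions from 13280589 to 13306492.

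Amn encodes amnionless, the membrane-anchored partner that carries cubilin to the cell surface. Its start (chromosome 12, 111269096 to 111273096) had a level of 15.4% (interval 15.05 to 15.8%, 33489 calls at 67 positions), and its columns lay close together, from 13.1% over a median of 15.8% to 16.7%. The level fell along the start, from 37.8% over 4 positions between -1000 and -501 bp, through 18.4% over 16 positions in the 500 bp before the first base and 12.4% over 34 positions in the 500 bp after it, to 6.41% over 13 positions farther in. Among all genes the medians of these bins were 9.76%, 1.502%, 1.22% and 2.74%, so each bin of Amn lay above the median gene. Its body had 23.7% over 8 positions (columns 17.3 to 31.8%). The 3′ end was lower still, 8.16% over 120 positions (columns 5.98 to 13.5%), and 118 of these positions were under 20%. All of these positions lay inside the gene, 3355 to 4871 bp after its first base. A window of 500 bp around the 3′ end gives 19.4%, from the positions at 4864, 4865 and 4871 bp only. Amn was the 1 member of 5 with a strand and at least 3 positions at the 3′ end that had a level under 20% there, against 15.5% of all 6356 genes measured at that end. A long non-coding RNA gene on the opposite strand, Gm51960 (111268907 to 111273736), covers the whole start window, and the calls there cannot be assigned to one gene or the other. It reaches into the body but ends before the measured body positions, the first of which is at 111273820.

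**Figure D2:**
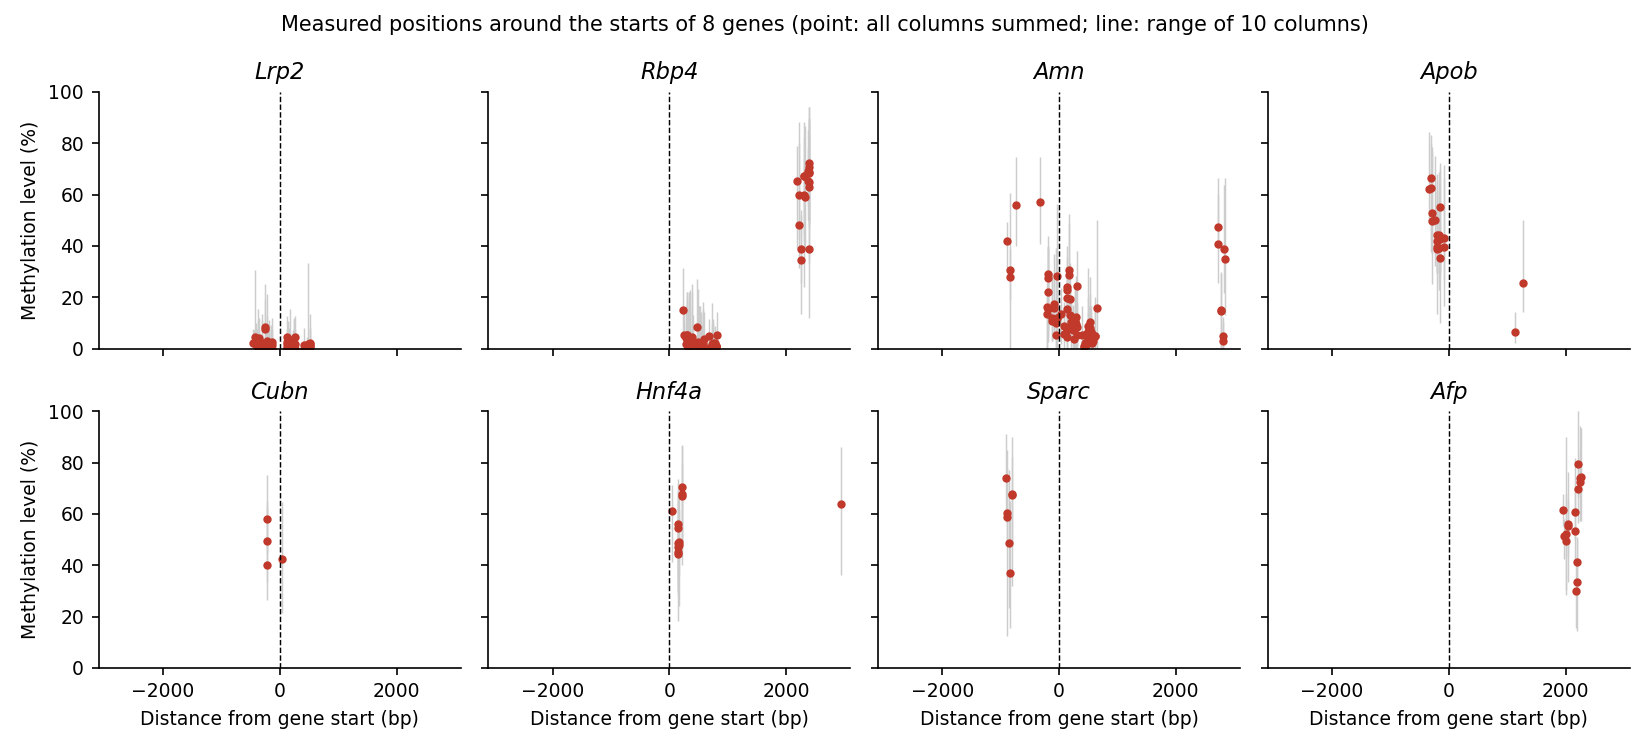
Methylation level in percent (vertical axis) of single positions against the distance in bp from the gene start (dashed line) for 8 genes; points are the 10 columns summed and grey lines run from the lowest to the highest column. Lrp2 and Rbp4 are near 0 beside the start, and Apob, Cubn, Hnf4a and Sparc lie mostly between 35% and 75% where they were measured. Most positions of Amn are under 20%, with others up to 57.0% before the start, 30.6% at 166 bp and 47.2% at 2724 bp.

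Apob encodes the structural protein of the large lipoproteins that the yolk sac secretes, and Apoa1 the main protein of high-density lipoprotein. The start of Apob (chromosome 12, 7975629 to 7979629) had a level of 42.3% (interval 41.1 to 43.5%, 6574 calls at 19 positions). The columns ran from 37.2% over a median of 41.4% to 50.8%, with columns 4 and 9 highest. The 17 positions from -335 to -87 bp had 49.1% (columns 42.3 to 63.6%). Within them, the 3 farthest positions stood at 62.3% to 66.4% and the 3 nearest at 35.3% to 43.0%. The other 2 positions, at 1137 and 1271 bp, had only 6.60% and 25.5%. Windows of 1000 or 500 bp leave these 2 out and give 49.1% for the start. No position was measured in the rest of Apob. Apoa1 (chromosome 9, 46228630 to 46230469) was measured only beyond its 3′ end, at 4 positions with a level of 57.8% (interval 55.8 to 59.8%), from 50.4% in column 7 over a median of 57.4% to 72.1% in column 2.

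Afp encodes alpha-fetoprotein, the main serum protein of the fetus and a classical product of the visceral endoderm. Its start window held only 2 positions, 1965 and 1975 bp into the gene, with a level of 56.4% (interval 53.4 to 59.4%, columns 48.9 to 61.7%). They continue into the body, so that the stretch from 1965 to 2268 bp had 55.4% over 16 positions (columns 50 to 64.0%). A second stretch, 14166 to 14300 bp into the gene, had 46.0% over 10 positions (40.6 to 54.3%). These values say nothing about the promoter itself, where none of the 3 CpGs in the 300 bases was measured.

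Hnf4a encodes a nuclear receptor that drives the secretory genes of visceral endoderm and liver. At its start (chromosome 2, 163504811 to 163508811) the level was 52.5% (interval 51.2 to 53.9%, 5095 calls at 12 positions), and the positions lay 53 to 218 bp into the gene. The columns were spread widely, from 39.4% in column 7 over a median of 52.5% to 63.3% in column 1 and 65.0% in column 2. A long non-coding RNA gene on the opposite strand, Hnf4aos (163493804 to 163541721), covers this window and part of the body. The second RefSeq start of Hnf4a, inside the gene (163547155), had 4 CpGs in its 300 bases, and none was measured. Just downstream of it, 10 positions from 163547328 to 163547599 had 58.9% (columns 37.8 to 78.3%). They are counted in the body. The body stood at 59.6% over 75 positions (columns 52.6 to 62.7%), above the start in 7 of 10 columns. The 2 positions at the 3′ end gave 66.7% (48.7 to 74.0%).

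Sparc encodes osteonectin, a calcium-binding matrix protein abundant in parietal endoderm and other basement membrane producers. Its start window (chromosome 11, 55418080 to 55422080) was measured only from -915 to -810 bp, at 7 positions with a level of 58.5% (interval 56.4 to 60.6%, 2138 calls). This part had the widest range over columns among the members, from 39.7% in column 6 over a median of 58.6% to 71.3% in column 5. The body had 61.3% over 18 positions (columns 53.1 to 67.6%), above the start in only 6 of 10 columns, and the 3′ end 55.9% over 19 positions (51.3 to 60.7%). None of the 4 CpGs in the 300 bases at its start was measured, so the Sparc value is that of a distal upstream region.

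With the columns summed, the order of the 7 start levels was Lrp2, Rbp4, Amn, Apob, Cubn, Hnf4a and Sparc. The columns of Lrp2 and Rbp4 overlapped each other and no other gene, and those of Amn overlapped no other gene. Lrp2 and Rbp4 changed order between columns. The ranges of Apob, Cubn, Hnf4a and Sparc overlapped throughout. Compared within each column, Sparc was above Apob in each of the 10 columns, most narrowly in column 6 with 39.7% against 38.6%. Every other pair of these 4 genes changed order between columns. The body was above the start in each of the 6 members with at least 3 positions in both, and this was so for 91.3% of all 7915 genes measured in both. The difference was 60.6 percentage points in Lrp2 (lowest column 56.8) and 55.9 in Rbp4 (lowest column 47.7), but 13.1 in Cubn, 8.31 in Amn, 7.01 in Hnf4a and 2.78 in Sparc. In Hnf4a and Sparc it changed sign between columns, from -4.05 to 20.3 and from -13.3 to 20.7 percentage points. The median body level of the 7 members with a strand and at least 3 body positions was 59.6%, and that of all 9841 genes counted in the same way 62.2%. Of these 7 bodies 0 were under 20%, against 5.32% of all genes. The body of Ttr, at 50.4%, is not in these counts because Ttr has no strand in the table used.

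**Figure D3:**
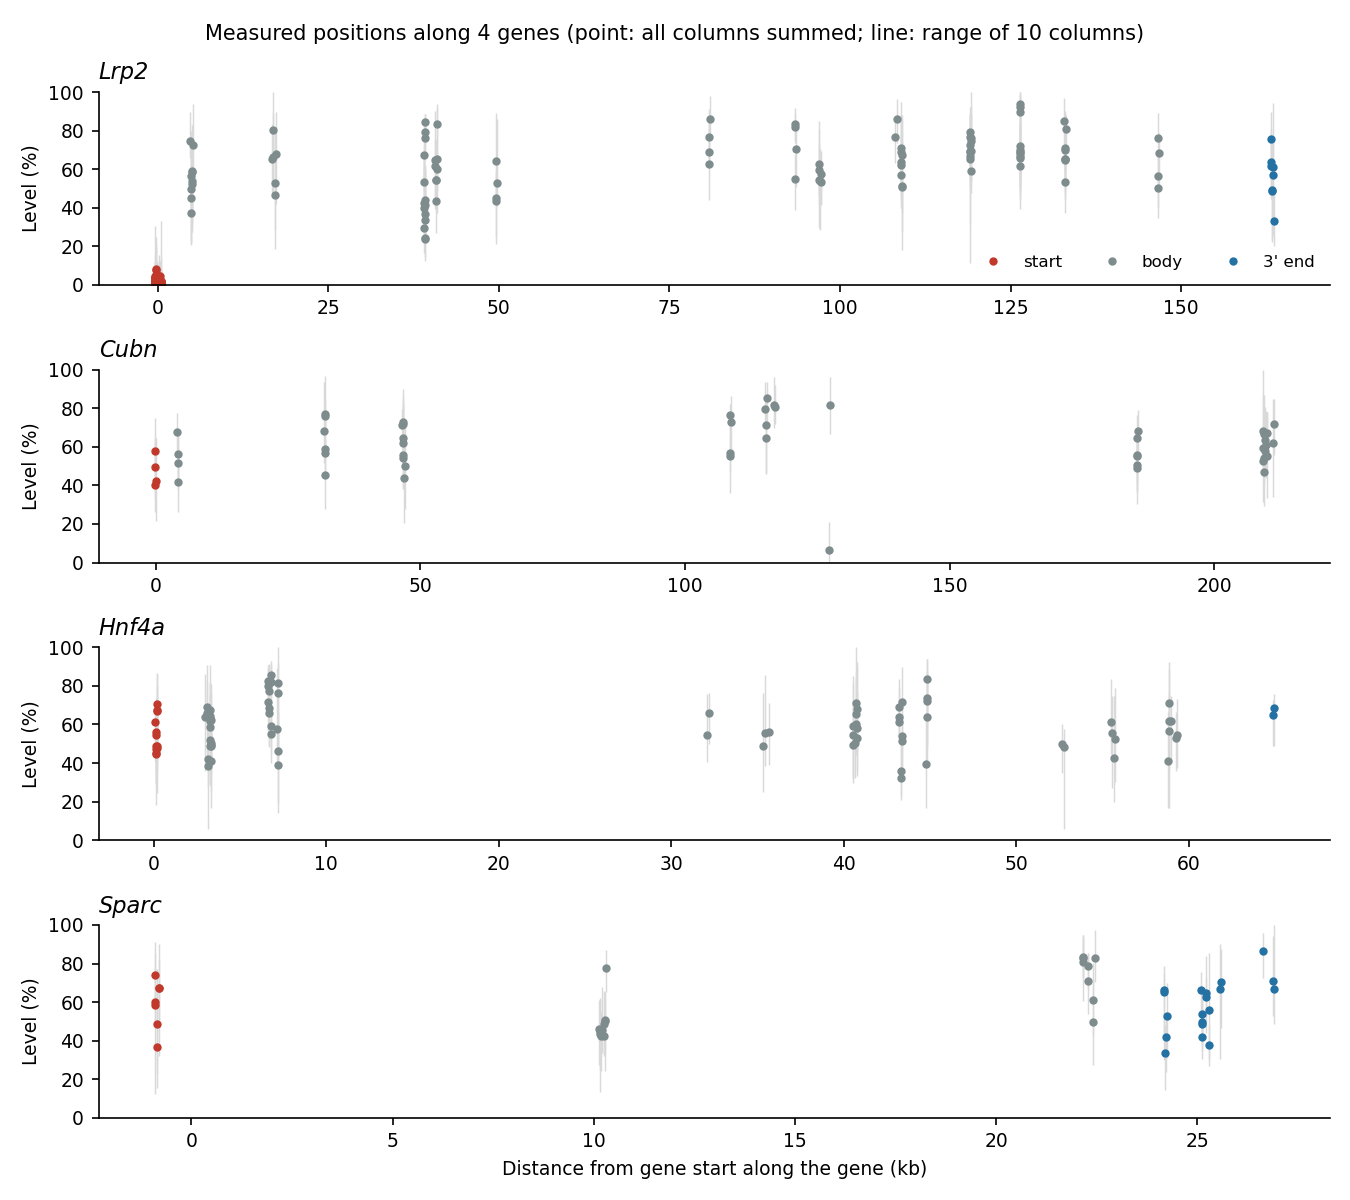
Methylation level in percent (vertical axis) of each measured position along Lrp2, Cubn, Hnf4a and Sparc against the distance in kb from the gene start; points are the 10 columns summed, grey lines run from the lowest to the highest column, and colours mark start, body and 3′ end. Outside the start of Lrp2 most positions of these 4 genes lie between 20% and 80%, with 1 position of Cubn at 6.58%.

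The start levels went with the number of CpGs in the 300-base promoter, as they did over all genes. Genes with at most 5 CpGs there, among them Cubn, Hnf4a and Sparc, had a median start level of 49.2% and were under 20% in 19.4% of 1079 cases. With 6 to 10 CpGs, as in Apob, the median was 23.6%, with 11 to 15, as in Amn, 5.91%, with 16 to 20, as in Lrp2, 3.81%, and with more than 20, as at the second start of Rbp4, 2.16%. Each of the 7 members lay between the quartiles of its class. Hnf4a, Sparc, Apob and Amn were above the median of theirs, and Cubn, Lrp2 and Rbp4 below it. For a gene with more than 1 RNA start within 2000 bp of its first base, the start with the most CpGs set the class. The first start of Rbp4 has 5 CpGs, and the lower quartile of that class was 30.3%, far above Rbp4 at 1.55%. The measured positions of Sparc lay outside its 300-base promoter, so its level is not that of the CpGs counted. Genes poor in promoter CpGs were also measured less often, 23.3% of 4633 genes with at most 5 CpGs against 95.4% of 5757 with more than 20. Apoa1 with 4 CpGs and Afp with 3 belong to the class that was mostly not measured.

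**Figure D4:**
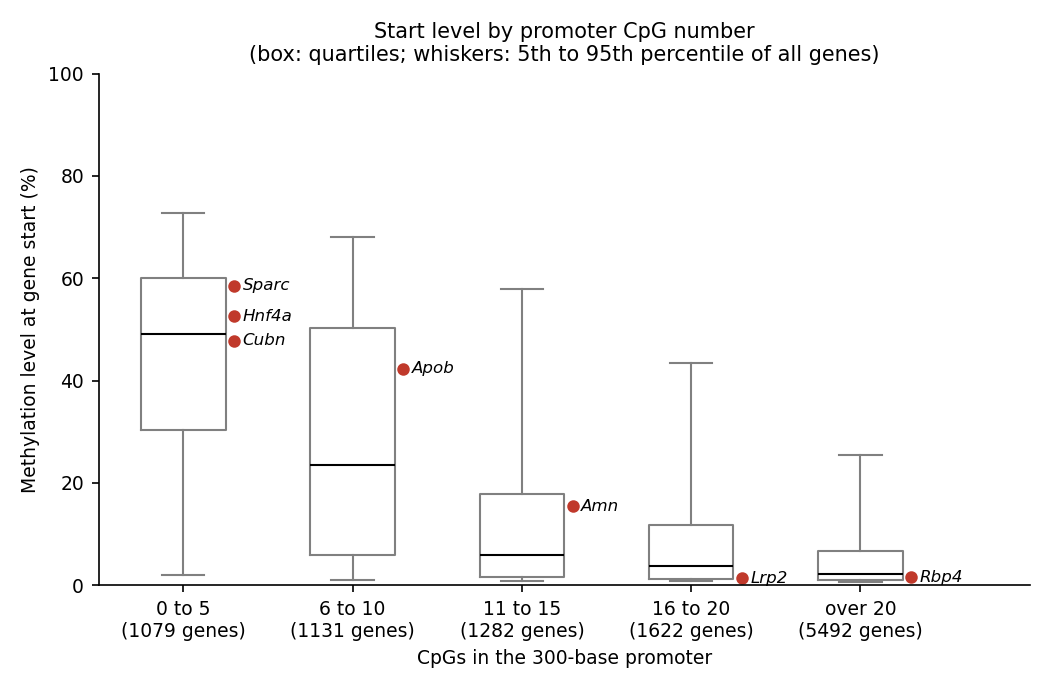
Methylation level at the gene start in percent (vertical axis) by the number of CpGs in the 300-base promoter (horizontal axis); boxes are quartiles with the median, whiskers the 5th and 95th percentiles over all genes, and red points the 7 members. Medians fall from 49.2% to 2.16%, and the members follow from Sparc at 58.5% to Rbp4 at 1.55%, which is placed by the CpGs of its second start.

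The spread between columns was also set beside that of all genes. Over the 17 member parts with at least 3 positions and a level of 20% or more, the range over the 10 columns had a median of 14.5 percentage points, from 8.48 in the Cubn body to 31.6 at the Sparc start. Over 15304 parts of all genes with a level between 20% and 80%, the median range was 12.5 points, with quartiles of 8.63 and 17.8, so the median of the members lay between them. Chi-square per degree of freedom, which sets the spread between columns against counting error, had a median of 5.32 in the member parts and 5.91 over all genes. By this measure the Lrp2 body was highest, at 23.9, and the Sparc start had 8.80. The lowest column was column 8 in 6 of the 17 member parts and column 6 in 5, and columns 6, 7 and 8 were also the lowest in mean autosomal level. Which of these columns are control and which are arsenic is not known, so the range holds any difference between the groups.

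Other genes of the visceral endoderm, the parietal endoderm and the yolk sac were taken from a list of 58. A strand was given and the gene was autosomal for 37 of them, and 29 had at least 3 positions at the start. Of these 29, 21 were under 20% and 8 between 20% and 80%, or 72.4% under 20% against 75.9% of all genes. Their median was 12.3%. The 5 measured transcription factor genes were all under 20%, from Hhex at 3.17% to Otx2 at 19.0% (columns 16.1 to 23.8%). The measured start region of Hnf4a stood at 52.5%. Foxa1, Foxa2, Foxa3 and Hhex have 22 to 37 CpGs in the 300-base promoter, a class in which 92.8% of all genes were under 20%. Otx2 has 8 and Hnf4a 4, in classes with 46.6% and 19.4% under 20%. The 8 measured genes of basement membrane and parietal endoderm were also under 20%, with Hspg2, the perlecan gene, at 1.53%, and Col4a1 and Col4a2, which share their start region, at 1.76%. The highest of these 8, Pth1r, was close to the limit, at 19.5% over 4 positions with columns from 9.26% to 27.7%. Pdgfra and Pth1r have 5 promoter CpGs, and the others of these 8 have 18 to 37. Of 6 lipoprotein genes, 4 were above 20%, as Apob was, and Apoa2 was close to the limit at 19.6% (columns 17.3 to 22.3%). Apom, a carrier of sphingosine-1-phosphate, had 76.0% over 14 positions (columns 69.5 to 79.5%) and Apoa4 53.7% over 9 positions (45.8 to 66.7%), while Mttp, which loads lipid onto the Apob protein, had the lowest level of all 29, 0.920% over 96 positions (0.449 to 1.15%). Among the endocytosis genes the lysosomal protease gene Ctsl had 1.18% and the neonatal Fc receptor gene Fcgrt 62.1% (columns 54.8 to 69.6%). Lgmn was close to the limit, at 19.6% (columns 15.5 to 24.2%). Among the secreted factors Vegfa had 1.26%, and Cer1, which encodes a Nodal antagonist secreted by the anterior visceral endoderm, had 67.5% (columns 55.2 to 75%). The serum protein genes Fgb and Ambp, the only ones of their group with a measured start, had 49.1% and 51.1%. Fgb has 5 promoter CpGs and Ambp 3, and Apoa2, Apoa4, Apoc2 and Apom have 1 to 9 against 27 in Mttp. A difference between roles apart from CpG number was not tested.

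**Figure D5:**
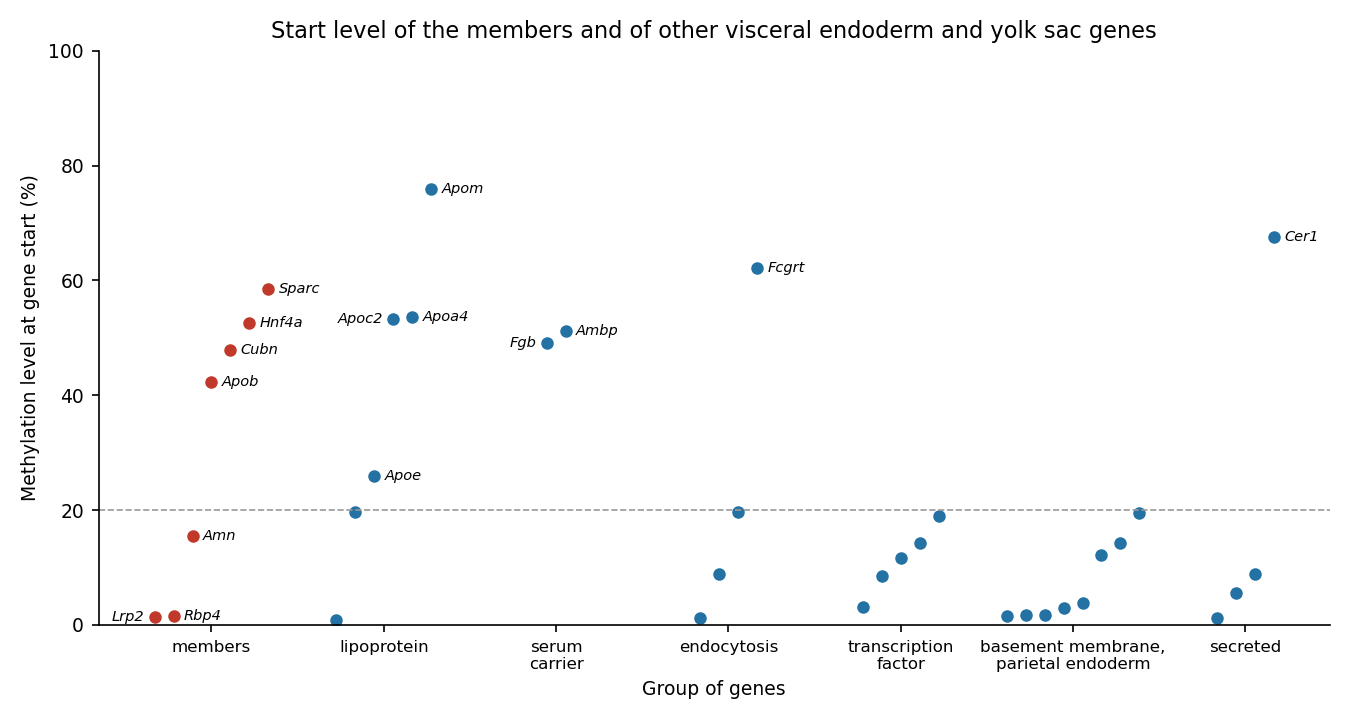
Methylation level at the gene start in percent (vertical axis) for the 7 measured members (red) and for 29 other visceral endoderm, parietal endoderm and yolk sac genes by role (blue); each point is a gene with the 10 columns summed, names are given for members and for other genes above 20% (dashed line). Transcription factor and basement membrane genes are all under the line, and 4 of 6 lipoprotein genes and both serum protein genes are above it. The groups also differ in promoter CpG number.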

How the data were processed

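DNA of 10 samples of mouse embryos at embryonic day 7.5 was made into reduced representation bisulfite libraries, per the labels. Tools listed in the submitters' processing notes are Trim Galore, Bismark and methylKit, with the build mm10, and no version or setting was at hand. The authors deposited raw counts, which are covering reads, methylated calls and unmethylated calls per cytosine position in 10 numbered columns, per the file headers. As tested on the table, both calls add up to the coverage and each position has at least 10 reads in each column. No normalization was applied here. Depth per sample is not known, since 0 of the 10 columns matched a sample title alone. The planned arsenic against control comparison by logistic models could therefore not be run, and all values are descriptive apart from a test for single outlying columns.

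Of 2137826 rows, 2 repeated a position and were left out. Gene intervals and strand came from RefSeq tables of GRCm38.p6, and of 167565 measured positions inside promoter windows 167559 lay on a CpG of the reference. A position within 2000 bp of both ends went to the nearer end, and the body is the inside farther than 2000 bp from both. Counts of genes need at least 3 positions. Members and lists were chosen with earlier results of these data known. All members are named, and of the 58 other genes the 4 highest and 4 lowest starts with at least 5 positions, further genes being named after their values were seen. For genes without a strand the plan took the end with more positions as the start. After seeing the data such genes were instead left out of all counts of starts, bodies and 3′ ends, and the stand-in was added as an alternative. Windows were tested on simulated data. Python 3.11.15, numpy 2.4.6, scipy 1.17.1, pandas 2.3.3 and matplotlib 3.10.9 were used. Alternatives covered coverage, the most covered positions, weighting, window, strand pairing, the minimum of positions, and omission of single columns.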

Additional observations from a re-analysis of the deposited data

Results flagged for a closer look

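In 4 of the 23 member levels, 1 of the 10 columns stood apart by Dixon's test at its 95% critical value. By chance the test marks about 1 in 20 sets of values, and the columns hold both groups of samples without a known assignment. Column 8 had the lowest level of the Hnf4a body, 52.6%, with the next column at 58.3% and 3105 calls in column 8. Column 10 had the highest level of the Amn 3′ end, 13.5% over 4490 calls, with the next at 9.86%. Column 9 had the lowest level of the Lrp2 3′ end, 34.6%, with the next at 47.8%, and this value rests on 182 calls at 8 positions. Column 2 had the highest level beyond the 3′ end of Apoa1, 72.1%, with the next at 61.4%, over 222 calls at 4 positions. The columns concerned differ between the 4 parts.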

How the results depend on the processing

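The count of 3 members with a start under 20% was 3 under each alternative run, of 5 to 8 members measured. The body was above the start in each member measured in both, 4 to 6 of them, under each alternative run for it. The median level of the member parts, 53.1%, was 56.3% with positions weighted equally and 49.3% over 15 parts with windows of 500 bp, and 52.5% to 54.3% when 1 column was left out. The share of other genes with a start under 20%, 72.4%, was 69.0% to 72.4% without 1 column, 62.1% with equal weights, 80% with windows of 500 bp, and 67.3% of 49 genes with strandless genes kept, an alternative added after seeing the data. Single levels moved by more than the SD over columns in 1 of 22 cases with at least 20 reads, 1 of 23 with equal weights, 1 of 10 and 5 of 8 with windows of 1000 and 500 bp, 3 of 21 with both strands required, and 0 of 23 without the most covered positions. Windows of 500 bp gave 68.5% for the Sparc 3′ end, 19.4% for the Amn 3′ end and 2.63% for the Rbp4 start. The Sparc value rests only on the positions 25577 and 25592 bp after the start, and the Amn value only on those at 4864, 4865 and 4871 bp. No paired analysis was possible because the columns carry no sample or group, and leaving out replicates within a group was not run for the same reason. The starts of Cubn and Afp rest on few calls, 1276 at 4 positions and 1067 at 2 positions.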

Other observations

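Inside Lrp2, a stretch of 14 positions 39066 to 39231 bp after the start changed level over a short distance. At 39190 bp the level was 84.5% (columns 80.2 to 88.6%), and at 39144 bp, the next measured CpG, 24.0% (columns 14.3 to 37.1%), with no overlap of columns. The following positions stood between 24.3% and 53.1%, and the last one, at 39066 bp, was at 67.4% (columns 54.9 to 86.7%). The opposite strand gave 24.3% at the same CpG as the 24.0%. The neighbouring stretch 40586 to 40910 bp after the start had 62.4%.

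In the body of Cubn, the position 127206 bp after the start (chromosome 2, 13364670) had a level of 6.58% over 319 calls, with columns from 0 to 20.8%. It was the 1 of 50 body positions under 20%, and its neighbour at 127356 bp had 81.6%. Its opposite strand was not measured.

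Stretches of the Sparc body differed from each other, with 74.8% over 8 positions 22150 to 22451 bp after the start (columns 65.7 to 78.5%) and 47.7% over 10 positions 10131 to 10306 bp after it (39.1 to 57.4%), with no overlap of columns. In the Hnf4a body, the stretch 6608 to 7219 bp after the start was the highest of those measured, at 70.6% over 16 positions (67.0 to 74.8%), and that at 52637 to 52784 bp the lowest, at 48.9% over 2 positions (29.3 to 55.1%).

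Levels on both strands of the same CpG differed by a median of 3.83 percentage points at 122 partly methylated CpGs of the members, and by 4.31 points at 343895 such autosomal CpGs. The largest difference among the members was at an Rbp4 CpG 2393 bp after the start, with 63.1% on the plus and 39.0% on the minus strand.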
